A study of Mus musculus with 10 samples.

Results

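The genes of mitosis and chromosome segregation form a set of 47 protein-coding genes, chosen by symbol for their known parts in cell division and found as 47 rows among the 55421 genes of the count table, one row per symbol. The set was measured by RNA-seq in myeloid cells of mice that had carried MC17-51 fibrosarcomas, a mouse connective tissue tumor line, for 15 days. Mice were 8 to 12 weeks old when the tumors were implanted. Both genotypes carried floxed alleles of Ptpn11, the gene for the tyrosine phosphatase SHP-2. Control mice (Shp2f/f) had no Cre, and Shp2f/fLysMcre mice had Cre under the lysozyme M (Lyz2) promoter, which is active in monocytes, macrophages and neutrophils. Myeloid-derived suppressor cells (MDSCs) were taken from the spleen on magnetic beads (2 libraries per genotype). The study describes them as the polymorphonuclear, neutrophil-like subset, high in Gr-1, positive for Ly6G and negative for Ly6C. Tumor-associated macrophages (TAMs) were sorted from the tumor as live cells positive for CD45, CD11b and F4/80 and negative for Ly6G (3 libraries per genotype). Spleen and tumor came from the same animals in the study, but no label links an MDSC library to a TAM library or says that replicates were separate mice, so p-values measure only the spread between these libraries. Tissue, isolation method and cell type cannot be told apart.

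Cells enter mitosis when cyclin-dependent kinase 1 binds A- and B-type cyclins. Chromosomes are then condensed, attached to spindle microtubules at the kinetochores and held back by the spindle checkpoint until every attachment is made. The anaphase-promoting complex next marks securin and cyclin B for destruction, separase cuts cohesin, and the central spindle places the contractile ring that divides the cell. Most of these transcripts peak in G2 and M phase and are scarce in resting cells. In the myeloid lineage, progenitors divide, whereas mature neutrophils do not and tissue macrophages divide slowly.

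Every member passed the filter on low counts in every comparison. Total counts were between 28844660 and 38222998 per library, and single members had between 149 counts (Ttk) and 17627 counts (Mki67) in a library, with a median of 1109.5. Ptpn11 had 121, 125 and 121 CPM in Shp2f/f TAMs and 50.9, 54.2 and 53.8 CPM in Shp2f/fLysMcre TAMs, a fall of 1.24 on the log2 scale (edgeR adjusted p = 2.96e-09). In MDSCs it had 113 and 99.2 CPM in Shp2f/f and 94.7 and 79.7 CPM in Shp2f/fLysMcre, a log2 fold change of -0.29 ± 0.14 (SE, edgeR adjusted p = 0.361), so the deletion did not show as a called fall of the whole transcript there. Lyz2, where Cre is inserted, fell by 7.68 in MDSCs and fell by 8.33 in TAMs on the same scale. Xist was called higher and 3 Y-linked genes lower in the Shp2f/fLysMcre libraries of both cell types, with Uty called lower in TAMs alone. Xist had 0.029 CPM in Shp2f/f MDSCs, 4.82 to 18.1 CPM in Shp2f/f TAMs and 119 to 371 CPM in the Shp2f/fLysMcre libraries. Y-linked RNA was present in every library, with Eif2s3y at 69.4 to 87.6 CPM in Shp2f/f and 23.8 to 35.0 CPM in Shp2f/fLysMcre. The sex of the mice and the genotype cannot be told apart. Kif4 is the X-linked member. Neutrophil markers summed to at least 8647 CPM in every MDSC library, and macrophage markers to at least 9110 CPM in every TAM library. The MDSC libraries also had 1888 to 2476 CPM of macrophage markers. Monocyte markers summed to 5824 to 6171 CPM in Shp2f/f MDSCs and 3897 to 5198 CPM in Shp2f/fLysMcre MDSCs, above the 2036 to 2326 CPM of the TAM libraries. MDSC Shp2f/fLysMcre replicate 2 stood apart, with 650.3 CPM of fibroblast or tumor cell markers against 10.2 to 28.7 CPM in the other MDSC libraries. The median log2 fold changes of the members and of some other lists in MDSCs are also given without it.

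The mitotic genes differed between the genotypes in opposite directions in the 2 cell types. Summed over the 47 genes, their level was 1819 and 1726 CPM (counts scaled to the library's total count) in the Shp2f/f MDSC libraries and 3726 and 3294 CPM in the Shp2f/fLysMcre MDSC libraries. In TAMs the sum was 2453, 2453 and 2432 CPM in Shp2f/f and 1391, 1317 and 1347 CPM in Shp2f/fLysMcre. The genotypes did not overlap in either cell type, the sum being higher in the Shp2f/fLysMcre MDSCs and lower in the Shp2f/fLysMcre TAMs. A lower share of dividing cells and less mitotic RNA per cell cannot be told apart in bulk samples.

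In MDSCs, 34 of the 47 members were called higher and 0 lower by the edgeR quasi-likelihood test at an adjusted p under 0.05, where 4.28% of all 14806 genes tested were called (3.76% higher and 0.52% lower). The log2 fold change of all 47 was positive, with a median of 1.01 and a range from 0.14 (Espl1) to 1.31 (Kif18b), beside a median of -0.01 over all genes. The libraries of the 2 genotypes did not overlap for 46 of the 47, against 48.9% of all genes tested. The 13 members that were not called were Ccnb2, Bub1, Bub1b, Pttg1, Espl1, Cenpf, Hmmr, Smc2, Smc4, Kif20b, Kif23, Anln and Ect2, of which Cenpf missed the threshold by the least (edgeR adjusted p = 0.0501). At an unadjusted p under 0.05, 45 members were higher and 0 lower, and DESeq2 called 44 higher and 0 lower. The calls were lost when either Shp2f/f library was left out. The spread then came from the Shp2f/fLysMcre pair alone, and the log2 fold change of all 47 members stayed positive. Without Shp2f/fLysMcre replicate 2, the log2 fold change was 0.26 for Espl1 and -0.038 for Pttg1, with a median of 1.18 over the members. Each of these fits left 1 library in a group, which was assumed to vary like the pair of the other genotype. The median log2 fold change stayed between 0.80 and 1.18 when any 1 library was left out.

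In TAMs, 46 of the 47 members were called lower and 1 higher, where 50.2% of the 14446 genes tested were called (26.3% lower and 23.9% higher). The median log2 fold change was -0.76 over the members and -0.01 over all genes. The fall was deepest for Ube2c, at -1.02, and shallowest for Cenpa, at -0.19. The libraries of the 2 genotypes did not overlap for any of the 47 members, against 57.9% of all genes tested that had no overlap. The count was 46 lower in each fit that left out 1 TAM library. The exception was Pttg1, described below. Scaling by total counts moved the median of all genes to -0.11 and that of the members to -0.86, and it moved the count of all genes called higher from 3452 of 7257 to 2342 of 7569.

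**Figure D1:**
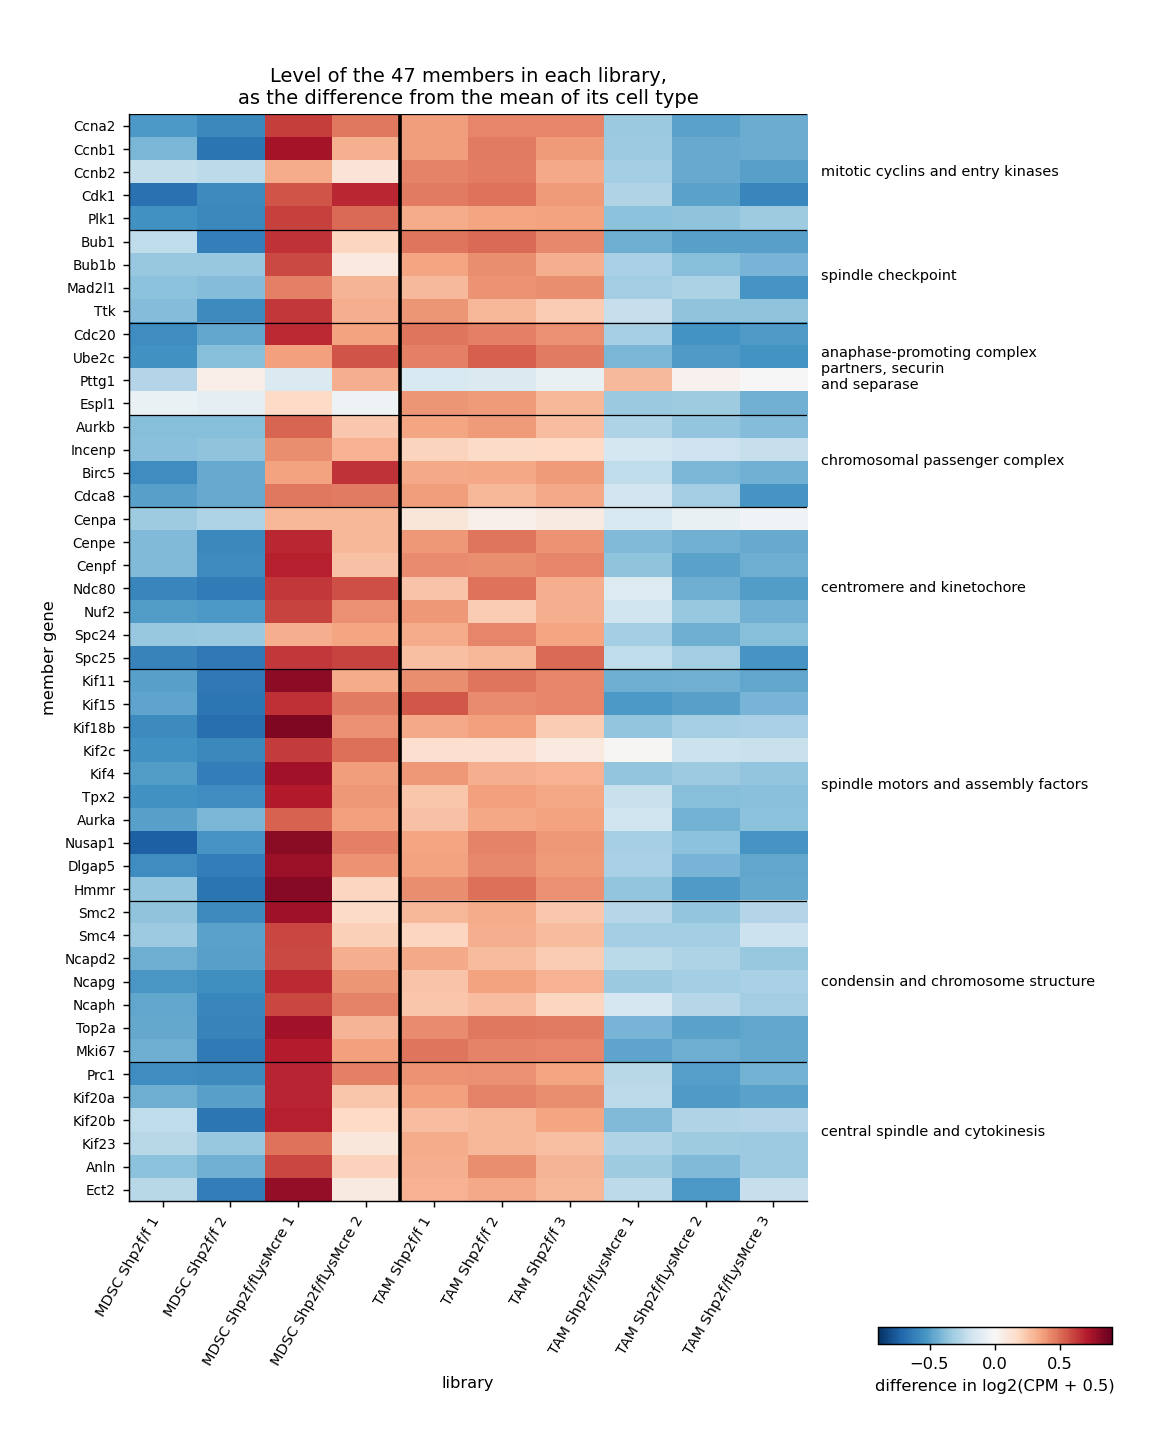
Level of each of the 47 members in each of the 10 libraries, as the difference of log2(CPM + 0.5) from the mean of the MDSC libraries (left of the black line) or of the TAM libraries (right of it), with red for higher and blue for lower. Both Shp2f/fLysMcre MDSC libraries had 46 members above the mean of the MDSC libraries, every Shp2f/f TAM library had 46 members above the mean of the TAM libraries, and Pttg1 stands out as a pale row, with Espl1 pale in the MDSC columns.

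The 2 genotype effects differed from each other for nearly every member. The interaction, the genotype effect in TAMs minus that in MDSCs, was called below 0 for 46 of the 47 members and above 0 for 0 (0 above 0 also at an unadjusted p under 0.05), where 24.9% of the 16581 genes tested were called (12.7% below 0 and 12.2% above). Its median over the members was -1.75 on the log2 scale, beside -0.01 over all genes. limma voom with sample weights for each cell type also called 46 below 0 and 0 above. In simulated counts, 17.8% of the calls of the edgeR interaction fit and 6.10% of those of limma voom were false. The simulation changed far fewer genes than were called here, so these shares need not hold for these data. Of the 47, 34 were called higher in MDSCs and lower in TAMs. Across the 47 members, the size of the rise in MDSCs and the fold change in TAMs had a Spearman rho of -0.28 and a Pearson r of -0.43, over genes that were measured in the same libraries.

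**Figure D2:**
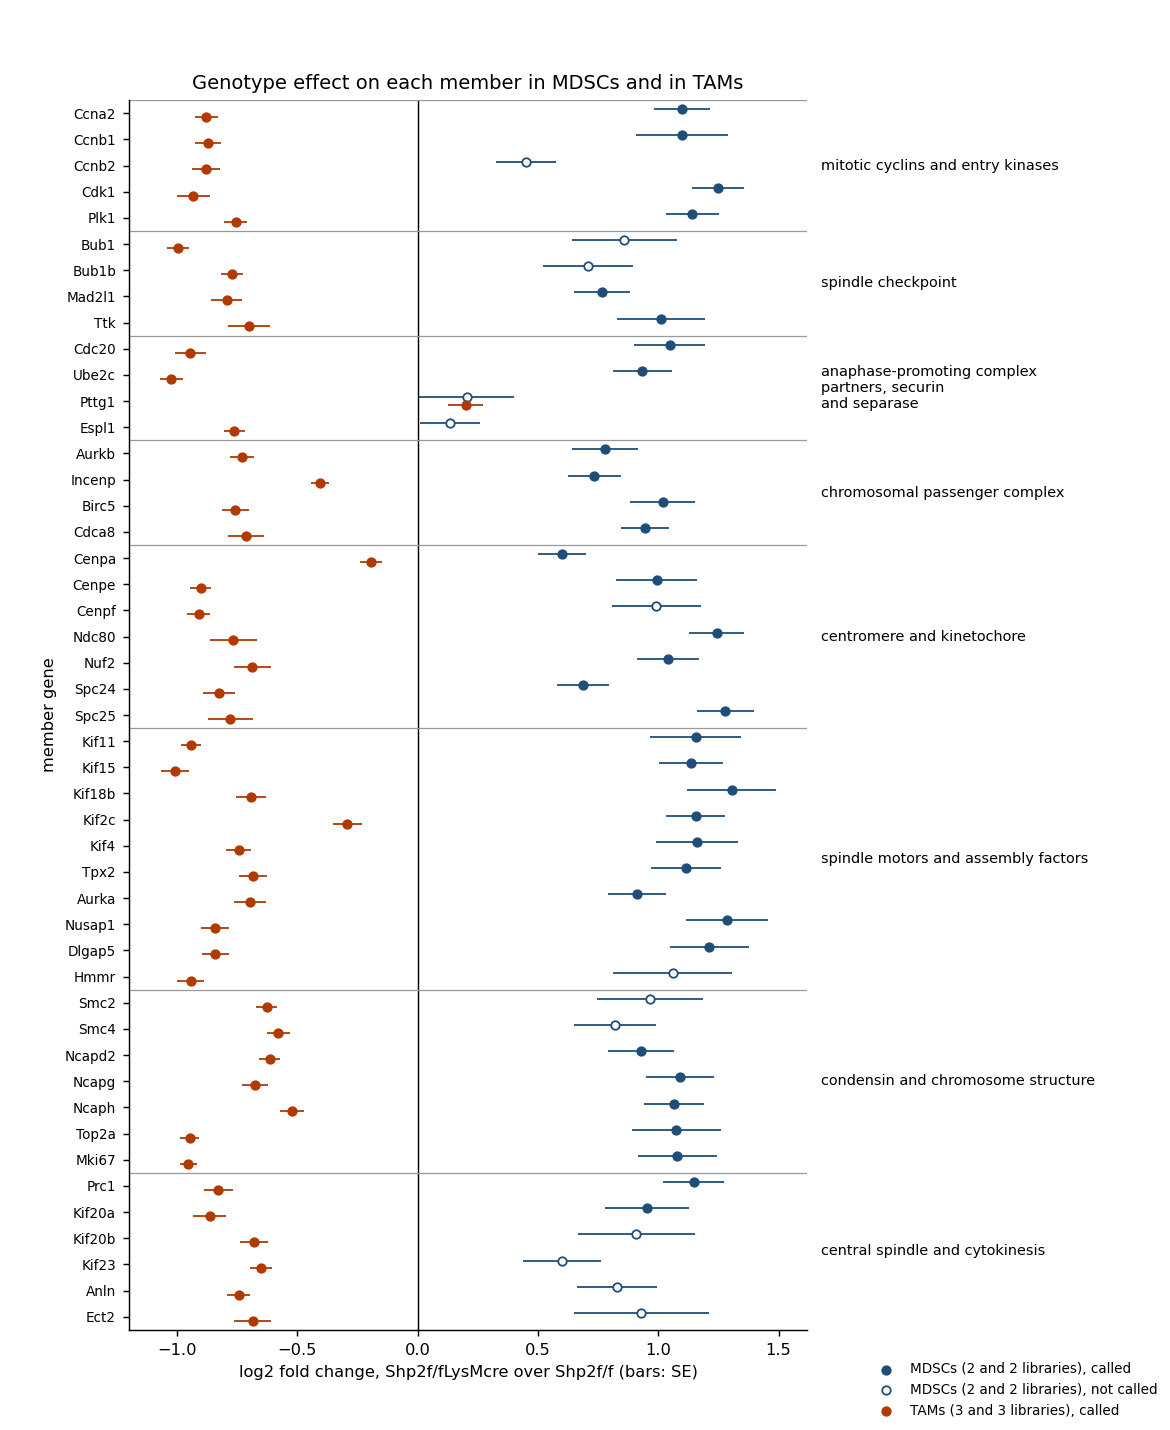
Log2 fold change of Shp2f/fLysMcre over Shp2f/f for each member in MDSCs (blue) and in TAMs (orange), with bars for the standard error, filled points for members called at an adjusted p under 0.05 and open points for the others. All 47 MDSC points lie above 0 and 46 TAM points lie below it, and only Pttg1 has both points on the same side.

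The proximal promoters of the members are shown because the genes moved together and because the promoters of many G2 and M phase genes are known to hold a cell cycle genes homology region (CHR) beside CCAAT boxes, which bind the DREAM and MuvB complexes and the factor NF-Y. RefSeq windows of 250 bases before the start of transcription (GRCm38.p6) were found for 39 of the 47 members. The letters of the CHR (TTTGAA or TTCGAA, either strand) stood in 15 of the 39 windows (38.5%), against 17.4% of the windows of all 27025 genes and 12.6% of those of the other genes tested here. CCAAT (either strand) stood in 28 windows (71.8%), against 34.5% and 36.3%. Both stood in 13 windows (33.3%), against 6.21% and 4.86%. The E2F letters TTCCCGCC or TTTGGCGC stood in 2 windows (5.13%), against 2.29% and 4.17%. A match of letters is a description and no evidence of binding, and no CHR, CCAAT or E2F match overlapped a match of another of these motifs. The windows of Nuf2, Nusap1, Ncaph, Mad2l1, Anln, Pttg1, Birc5, Ndc80 and Kif20b held neither the CHR nor the CCAAT letters. RefSeq starts lay 3867, 2394, 328 and 270 bases inside the GENCODE genes for Kif2c, Cdca8, Kif4 and Pttg1, so these windows may not cover the promoter in use.

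The last 120 bases before the RefSeq start are given for 7 members, on the strand of the gene and from 5′ to 3′. The CHR and CCAAT letters of either strand are in capitals. All 7 stretches hold a CHR match, whereas 15 of the 39 windows of 250 bases do, so the 7 do not stand for the set. Cdk1 lies at chr10:69352913-69353032 on the minus strand, Cdc20 at chr4:118437344-118437463 on the minus strand, Ube2c at chr2:164769809-164769928 on the plus strand and Kif11 at chr19:37376262-37376381 on the plus strand. The windows of Top2a (chr11:99024190-99024309, minus), Mki67 (chr7:135716380-135716499, minus) and Espl1 (chr15:102296173-102296292, plus) follow. Against the GENCODE starts of the same build, the RefSeq starts lay 9 to 31 bases downstream for Cdk1, Cdc20, Ube2c and Espl1, at the same base for Top2a and upstream for Kif11 and Mki67.
Cdk1: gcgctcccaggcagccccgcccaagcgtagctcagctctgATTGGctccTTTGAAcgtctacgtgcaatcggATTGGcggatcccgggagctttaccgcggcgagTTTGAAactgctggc
Cdc20: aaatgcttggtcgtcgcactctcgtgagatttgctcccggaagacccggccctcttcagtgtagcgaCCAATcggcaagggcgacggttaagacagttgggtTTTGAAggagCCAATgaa
Ube2c: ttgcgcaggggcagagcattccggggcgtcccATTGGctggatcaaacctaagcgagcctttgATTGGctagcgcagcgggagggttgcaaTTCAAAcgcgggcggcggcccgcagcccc
Kif11: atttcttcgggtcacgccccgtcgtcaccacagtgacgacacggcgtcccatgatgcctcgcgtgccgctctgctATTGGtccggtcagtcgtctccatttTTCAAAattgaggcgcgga
Top2a: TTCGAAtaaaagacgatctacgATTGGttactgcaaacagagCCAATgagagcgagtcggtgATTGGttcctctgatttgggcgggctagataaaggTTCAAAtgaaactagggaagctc
Mki67: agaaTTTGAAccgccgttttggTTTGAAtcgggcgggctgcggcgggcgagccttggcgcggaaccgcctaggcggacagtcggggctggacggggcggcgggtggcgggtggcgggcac
Espl1: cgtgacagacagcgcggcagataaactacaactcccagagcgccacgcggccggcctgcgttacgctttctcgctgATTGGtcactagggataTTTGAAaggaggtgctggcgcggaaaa
Cdk1, Top2a and Mki67 each carried 2 CHR matches in these stretches, and Espl1, whose level behaved unlike that of Cdk1 in MDSCs, also carried 1 CHR and 1 CCAAT match.

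The cyclins and kinases of mitotic entry were among the clearest cases. Of the 5 members, 4 were called higher in MDSCs (median log2 fold change 1.10) and all 5 lower in TAMs (median -0.88). From here on, levels of single genes are CPM after TMM scaling over all 10 libraries. Ccna2 encodes cyclin A2, which drives S phase and the approach to mitosis. Its level in MDSCs was 63.1 and 60.6 CPM in Shp2f/f and 139.9 and 126 CPM in Shp2f/fLysMcre, a log2 fold change of 1.10 ± 0.12 (SE, edgeR adjusted p = 0.0183). In TAMs it was 78.3, 81.6 and 81.8 CPM in Shp2f/f and 47.7, 43.0 and 44.1 CPM in Shp2f/fLysMcre, a log2 fold change of -0.88 ± 0.048 (SE, edgeR adjusted p = 1.19e-07). Each MDSC library of the deletion lay above all TAM libraries, and each TAM library of the deletion below all others. Ccnb2, one of the B-type cyclins, had the highest level per kilobase of exon among the members, 30.6 CPM per kilobase over all libraries. MDSCs had 61.2 and 60.5 CPM of Ccnb2 in Shp2f/f and 90.1 and 77.1 CPM in Shp2f/fLysMcre, and the difference of 0.45 ± 0.12 (SE, edgeR adjusted p = 0.128) did not pass the test. In TAMs Ccnb2 went from 39.2, 39.5 and 36.3 CPM to 23.1, 20.8 and 20.2 CPM, a log2 fold change of -0.88 ± 0.059 (SE, edgeR adjusted p = 5.03e-07). Cdk1, the kinase itself, rose by 1.25 in MDSCs and fell by 0.93 in TAMs on the log2 scale, Plk1 rose by 1.14 and fell by 0.76, and Ccnb1 rose by 1.10 and fell by 0.87. Ccna2 overlaps Exosc9, which had a mean of 36.7 CPM, on the opposite strand. Whether reads were counted by strand was not stated, so the counts of such overlapping genes are uncertain. The same holds for Kif20a with Cdc23 (31.8 CPM), Kif4 with Pdzd11 (27.3 CPM) and Ncapg with Lcorl (15.2 CPM).

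Spindle checkpoint kinases and adaptors delay anaphase while kinetochores lack microtubules. In MDSCs 2 of the 4 members, Mad2l1 and Ttk, were called higher, and in TAMs all 4 were lower (median -0.78). Bub1 recruits the other checkpoint proteins to the kinetochore. The MDSC libraries had 23.6 and 17.9 CPM of Bub1 in Shp2f/f and 43.8 and 31.7 CPM in Shp2f/fLysMcre, a difference of 0.86 ± 0.22 (SE, edgeR adjusted p = 0.106) that did not pass the test. Its TAM levels were 49.5, 50.5 and 47.8 CPM and 25.9, 25.0 and 25.1 CPM in the same order, a log2 fold change of -0.99 ± 0.044 (SE, edgeR adjusted p = 3.14e-08). Bub1b encodes BUBR1, part of the complex that inhibits Cdc20. Its MDSC levels of 45.7 and 45.8 CPM in Shp2f/f and 88.0 and 62.0 CPM in Shp2f/fLysMcre gave 0.71 ± 0.19 (SE, edgeR adjusted p = 0.117), again not past the test. The TAM levels of Bub1b were 79.4, 83.0 and 77.8 CPM in Shp2f/f and 50.5, 47.4 and 46.4 CPM in Shp2f/fLysMcre, a change of -0.77 ± 0.045 (SE, edgeR adjusted p = 1.78e-07). Both genes were higher in each deleted MDSC library than in each control MDSC library, but the 2 deleted libraries lay far apart, replicate 1 being the higher. Without replicate 2 of Shp2f/fLysMcre, which left 1 deleted library, the MDSC rise of Bub1 was 1.08 and that of Bub1b 0.95.

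The partners of the anaphase-promoting complex, securin and separase held both exceptions of the set. Cdc20 activates the complex in mitosis and Ube2c is its ubiquitin-conjugating enzyme. Cdc20 rose in MDSCs from 22.1 and 23.5 CPM to 52.4 and 42.2 CPM, a log2 fold change of 1.05 ± 0.15 (SE, edgeR adjusted p = 0.0266). In TAMs it fell from 36.4, 35.7 and 34.6 CPM to 21.0, 17.7 and 18.1 CPM, a change of -0.94 ± 0.064 (SE, edgeR adjusted p = 5.51e-07). Ube2c went from 42.2 and 47.3 CPM to 80.0 and 92.0 CPM in MDSCs, a change of 0.93 ± 0.12 (SE, edgeR adjusted p = 0.0237). The TAM levels of Ube2c, 47.5, 50.4 and 48.0 CPM in Shp2f/f and 25.9, 24.1 and 23.6 CPM in Shp2f/fLysMcre, gave the deepest fall of all members, -1.02 ± 0.049 (SE, edgeR adjusted p = 5.50e-08). Both genes showed no overlap of genotypes in either cell type. Cdc20 overlaps Elovl1 on the opposite strand, which had a mean of 103.3 CPM against 30.4 CPM for Cdc20, so its counts are the least certain of these.

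Espl1 encodes separase, the protease that opens the cohesin rings at anaphase. Its MDSC levels were 48.1 and 47.3 CPM in Shp2f/f and 56.8 and 48.5 CPM in Shp2f/fLysMcre, a log2 fold change of 0.14 ± 0.12 (SE, edgeR adjusted p = 0.644), the smallest of the set. In TAMs Espl1 fell from 89.6, 88.7 and 83.6 CPM to 53.8, 54.3 and 50.2 CPM, a change of -0.76 ± 0.044 (SE, edgeR adjusted p = 1.71e-07), close to the median of the members. In MDSCs its libraries of the 2 genotypes lay side by side without overlap. Its interaction was called all the same (log2 fold change -0.87 ± 0.10 SE, edgeR adjusted p = 3.25e-04). Pttg1 encodes securin, the inhibitor that holds separase until the anaphase-promoting complex destroys it. MDSC levels of Pttg1 were 20.8 and 26.1 CPM in Shp2f/f and 22.8 and 31.6 CPM in Shp2f/fLysMcre, which overlapped (log2 fold change 0.20 ± 0.20 SE, edgeR adjusted p = 0.666). The TAM levels were 21.5, 21.7 and 22.7 CPM in Shp2f/f and 29.2, 24.4 and 23.8 CPM in Shp2f/fLysMcre, the only rise among the members (log2 fold change 0.20 ± 0.074 SE, edgeR adjusted p = 0.0425). That call was lost without Shp2f/f replicate 1, without Shp2f/f replicate 2, without Shp2f/fLysMcre replicate 1, with scaling by total counts, with a replicate block and in 1 fit of all 10 libraries, where its edgeR adjusted p was up to 0.257. The interaction of Pttg1 was 0.022 ± 0.21 (SE, edgeR adjusted p = 0.967), the only one of the 47 that was not called.

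**Figure D3:**
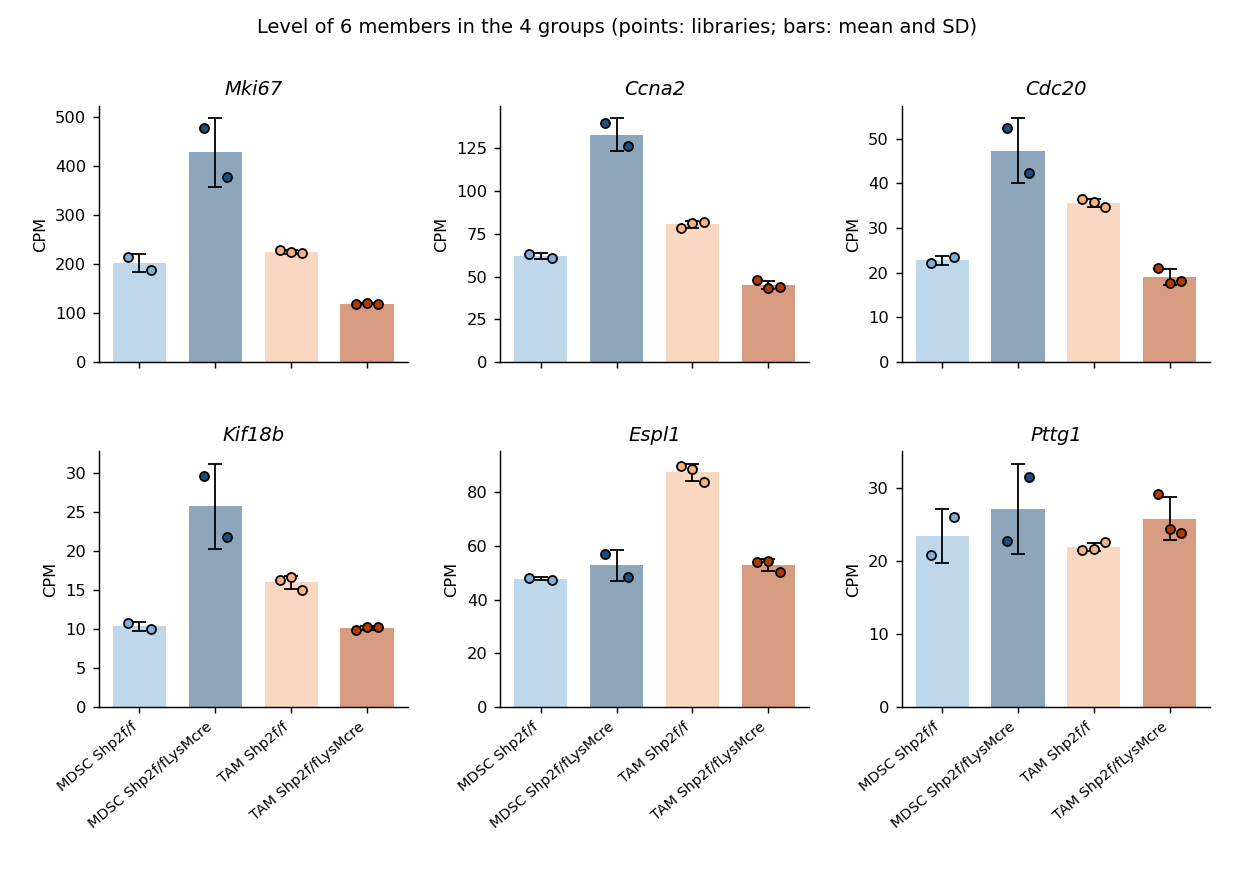
Level in CPM of 6 members in the 4 groups, with a point for each library and bars for the mean and the SD. Mki67, Ccna2, Cdc20 and Kif18b were highest in the Shp2f/fLysMcre MDSCs, Espl1 was highest in the Shp2f/f TAMs (83.6 to 89.6 CPM), and Pttg1 stayed between 20.8 and 31.6 CPM in every library.

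The chromosomal passenger complex corrects faulty attachments and prepares cytokinesis through the kinase Aurora B. All 4 members were called higher in MDSCs (median 0.86) and lower in TAMs (median -0.72). Incenp encodes the scaffold of the complex. It had 63.4 and 64.0 CPM in Shp2f/f MDSCs and 110.4 and 102 CPM in Shp2f/fLysMcre MDSCs, a log2 fold change of 0.73 ± 0.11 (SE, edgeR adjusted p = 0.0307). The TAM fall of Incenp, from 80.7, 79.0 and 79.6 CPM to 62.9, 61.8 and 60.6 CPM, was one of the 3 smallest (log2 fold change -0.40 ± 0.037 SE, edgeR adjusted p = 5.27e-06). Birc5 encodes survivin, which brings the complex to the inner centromere. Levels of Birc5 in MDSCs were 46.2 and 49.9 CPM in Shp2f/f and 88.0 and 108 CPM in Shp2f/fLysMcre, a change of 1.02 ± 0.13 (SE, edgeR adjusted p = 0.0234). In TAMs they were 46.9, 47.1 and 48.3 CPM and 31.4, 27.6 and 27.3 CPM in that order, a change of -0.76 ± 0.057 (SE, edgeR adjusted p = 1.17e-06). For both genes the genotypes were apart in both cell types. Aurkb, the kinase, rose by 0.78 and fell by 0.73, and Cdca8, which encodes borealin, rose by 0.94 and fell by 0.71 on the log2 scale.

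Of the 7 members of the centromere and kinetochore, 6 were called higher in MDSCs (median 0.99) and 7 lower in TAMs (median -0.78). Cenpa, the histone H3 variant that marks centromeres, had the weakest fall of the set. Its MDSC levels were 53.7 and 55.4 CPM in Shp2f/f and 83.0 and 83.0 CPM in Shp2f/fLysMcre (log2 fold change 0.60 ± 0.10 SE, edgeR adjusted p = 0.0382). In TAMs Cenpa had 57.9, 55.2 and 56.8 CPM in Shp2f/f and 48.8, 51.1 and 52.5 CPM in Shp2f/fLysMcre, a log2 fold change of -0.19 ± 0.045 (SE, edgeR adjusted p = 0.00433). The NDC80 complex, which binds microtubule ends, is made of the products of Ndc80, Nuf2, Spc24 and Spc25, and all 4 were called in both cell types. Spc25 rose most among them in MDSCs, from 9.72 and 9.40 CPM to 23.6 and 23.1 CPM (log2 fold change 1.28 ± 0.12 SE, edgeR adjusted p = 0.0179). Its TAM levels were 15.4, 15.7 and 18.3 CPM and 10.8, 10.1 and 8.64 CPM (log2 fold change -0.78 ± 0.092 SE, edgeR adjusted p = 3.74e-05). Spc24, its dimer partner, rose less, from 17.1 and 17.2 CPM to 27.5 and 28.0 CPM (log2 fold change 0.69 ± 0.11 SE, edgeR adjusted p = 0.0334). The TAM levels of Spc24 were 14.4, 15.6 and 14.6 CPM in Shp2f/f and 9.08, 8.22 and 8.60 CPM in Shp2f/fLysMcre (log2 fold change -0.82 ± 0.067 SE, edgeR adjusted p = 2.08e-06). The difference between the rises of Spc24 and Spc25 was not tested. Cenpe, a kinetochore motor, and Cenpf had MDSC log2 fold changes of 0.99 each, of which that of Cenpe was called, and fell by 0.90 and 0.91 in TAMs.

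The 10 spindle motors and assembly factors had the highest median rise of the 8 role groups in MDSCs, 1.16, with 9 called higher, and all 10 were lower in TAMs (median -0.79). Kif18b, a kinesin that shortens astral microtubules, had the largest rise of all members. It went from 10.8 and 9.98 CPM in Shp2f/f MDSCs to 29.7 and 21.9 CPM in Shp2f/fLysMcre MDSCs, a log2 fold change of 1.31 ± 0.19 (SE, edgeR adjusted p = 0.027). TAMs had 16.3, 16.7 and 15.0 CPM of Kif18b in Shp2f/f and 9.89, 10.3 and 10.3 CPM in Shp2f/fLysMcre (log2 fold change -0.69 ± 0.063 SE, edgeR adjusted p = 5.01e-06). Nusap1, which stabilizes and bundles spindle microtubules, was close behind. Its levels were 20.9 and 24.2 CPM and 62.0 and 48.3 CPM in MDSCs (log2 fold change 1.29 ± 0.17 SE, edgeR adjusted p = 0.0234). In TAMs Nusap1 had 30.4, 32.6 and 31.2 CPM in Shp2f/f and 19.2, 18.3 and 16.3 CPM in Shp2f/fLysMcre (log2 fold change -0.84 ± 0.060 SE, edgeR adjusted p = 8.14e-07). Kif15, a motor that helps keep the poles apart, had one of the 3 deepest falls in TAMs, from 33.5, 30.4 and 30.8 CPM to 15.6, 15.9 and 16.8 CPM (log2 fold change -1.01 ± 0.058 SE, edgeR adjusted p = 1.76e-07). Its MDSC levels were 25.9 and 23.0 CPM and 57.6 and 50.4 CPM (log2 fold change 1.14 ± 0.13 SE, edgeR adjusted p = 0.0201). The kinesin that is the target of several antimitotic compounds, encoded by Kif11, rose by 1.16 and fell by 0.94 on the log2 scale.

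Kif2c, a kinesin that takes microtubules apart at centromeres, was unusual for the size of its 2 effects. It rose from 11.8 and 11.5 CPM to 27.2 and 24.8 CPM in MDSCs (log2 fold change 1.16 ± 0.12 SE, edgeR adjusted p = 0.0183), more than the median of the members. Its fall in TAMs, from 32.0, 32.0 and 30.6 CPM to 29.0, 25.2 and 25.0 CPM, was the second smallest (log2 fold change -0.29 ± 0.061 SE, edgeR adjusted p = 0.002). In controls Kif2c was higher in TAMs than in MDSCs by 1.44 on the log2 scale, and in the deleted cells the difference was 0.022 ± 0.081 (SE). Tpx2 activates Aurora A and starts microtubule growth around chromosomes. Tpx2 levels in MDSCs were 35.0 and 34.7 CPM in Shp2f/f and 84.3 and 67.3 CPM in Shp2f/fLysMcre (log2 fold change 1.11 ± 0.15 SE, edgeR adjusted p = 0.0234). TAM levels of Tpx2 were 57.4, 62.4 and 61.7 CPM and 41.9, 36.9 and 37.1 CPM (log2 fold change -0.68 ± 0.058 SE, edgeR adjusted p = 2.69e-06). Aurka, the kinase gene, had 21.6 and 22.8 CPM in Shp2f/f MDSCs and 44.2 and 39.6 CPM in Shp2f/fLysMcre MDSCs (log2 fold change 0.91 ± 0.12 SE, edgeR adjusted p = 0.0234). In TAMs Aurka had 27.3, 28.9 and 29.2 CPM and 20.0, 16.8 and 17.4 CPM (log2 fold change -0.70 ± 0.067 SE, edgeR adjusted p = 7.31e-06). Neither Tpx2 nor Aurka showed any overlap between the genotypes. Of the rest of the group, Dlgap5 and Kif4 were called in both cell types, and Hmmr, a hyaluronan receptor that also binds the spindle, had a log2 fold change of 1.06 ± 0.25 (SE) in MDSCs that did not pass the test and fell by 0.94 in TAMs.

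Condensin subunits, topoisomerase II and Ki-67 shape the mitotic chromosome, and 5 of these 7 members were called higher in MDSCs (median 1.06) and all 7 lower in TAMs (median -0.63). Mki67, whose protein coats mitotic chromosomes and is the common histological mark of cycling cells, had 215 and 188 CPM in Shp2f/f MDSCs and 477 and 379 CPM in Shp2f/fLysMcre MDSCs. The log2 fold change was 1.08 ± 0.17 (SE, edgeR adjusted p = 0.0322). Its TAM levels were 229, 224 and 222 CPM in Shp2f/f and 118, 121 and 119 CPM in Shp2f/fLysMcre, a log2 fold change of -0.95 ± 0.036 (SE, edgeR adjusted p = 1.09e-08). Top2a, the topoisomerase that disentangles sister chromatids, went from 149 and 135 CPM to 347 and 254 CPM in MDSCs (log2 fold change 1.08 ± 0.19 SE, edgeR adjusted p = 0.042). In TAMs Top2a went from 248, 256 and 255 CPM to 138, 132 and 133 CPM (log2 fold change -0.95 ± 0.038 SE, edgeR adjusted p = 1.45e-08). Together these 2 genes held between 16.9% and 22.8% of all counts of the members in a library, the lowest shares being in the Shp2f/fLysMcre TAMs (16.9% to 17.7%). The 5 condensin members moved less in TAMs than Mki67 and Top2a, with falls between 0.52 (Ncaph) and 0.68 (Ncapg) on the log2 scale against 0.95 for both. In MDSCs, Ncapd2, Ncapg and Ncaph were called higher, by 0.93 to 1.09, and the shared core subunits Smc2 and Smc4 had log2 fold changes of 0.97 ± 0.22 and 0.82 ± 0.17 (SE) that did not pass the test.

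Central spindle and cytokinesis genes had the lowest share of calls among the role groups in MDSCs, 2 of 6, with all 6 log2 fold changes above 0 (median 0.92). All 6 were lower in TAMs (median -0.71). Prc1 bundles the antiparallel microtubules of the central spindle. It had 29.4 and 29.1 CPM in Shp2f/f MDSCs and 70.3 and 59.9 CPM in Shp2f/fLysMcre MDSCs (log2 fold change 1.15 ± 0.13 SE, edgeR adjusted p = 0.0186). Its TAM levels were 52.2, 52.5 and 50.4 CPM and 32.9, 27.7 and 29.1 CPM (log2 fold change -0.83 ± 0.061 SE, edgeR adjusted p = 9.62e-07). Kif20a, a kinesin needed to complete abscission, had 28.9 and 28.0 CPM and 63.6 and 46.9 CPM in the same MDSC groups (log2 fold change 0.95 ± 0.17 SE, edgeR adjusted p = 0.0488). In TAMs it had 47.1, 49.7 and 48.8 CPM in Shp2f/f and 30.8, 25.4 and 25.9 CPM in Shp2f/fLysMcre (log2 fold change -0.86 ± 0.068 SE, edgeR adjusted p = 1.60e-06). The genotypes of both genes were apart in both cell types. Kif23, Anln, Ect2 and Kif20b, which encode a central spindle kinesin, the ring protein anillin, the exchange factor that activates RhoA and a further kinesin, had MDSC log2 fold changes between 0.60 and 0.93 with edgeR adjusted p from 0.0625 to 0.157. In replicate 2 of the Shp2f/fLysMcre MDSCs these 4 genes lay below replicate 1, for Ect2 at 14.7 CPM against 24.2 CPM.

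The order of the 4 groups was largely shared by the members. With SHP-2 intact, TAMs had the higher level of 34 members and the lower level of 3 (Ccnb2, Spc24 and Kif23), with a median log2 difference of 0.62, where 69.6% of all genes tested were called (35.1% higher in TAMs and 34.6% lower). The libraries of the 2 cell types did not overlap for 42 members, against 84.5% of all genes tested. In the deleted cells 42 members were lower in TAMs and 0 higher (0 also at an unadjusted p under 0.05), with a median of -1.19, where 68.9% of all genes tested were called (36.6% lower and 32.3% higher). Here 42 members had no overlap between the cell types, against 76.1% of all genes tested. The 5 members not called there were Pttg1, Espl1, Kif2c, Anln and Ect2. limma voom with weights for each cell type gave 33 higher and 2 lower in the controls and 42 lower in the deleted cells. In simulated counts, 19.2% and 20.4% of the edgeR calls of these 2 comparisons were false. Far fewer genes were changed in the simulation than were called here, so these shares need not hold for these data. The mean was highest in the Shp2f/fLysMcre MDSCs for 41 members and in the Shp2f/f TAMs for the other 6, which were Bub1, Bub1b, Espl1, Kif2c, Anln and Ect2. It was lowest in the Shp2f/fLysMcre TAMs for 28 members, in the Shp2f/f MDSCs for 18 and in the Shp2f/f TAMs for Pttg1. Both Shp2f/fLysMcre MDSC libraries lay above all other 8 libraries for 30 members, and the 3 Shp2f/fLysMcre TAM libraries lay below all other 7 for 22 members.

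Many other genes of the kinetochore, the spindle and mitotic entry were called in the same directions as the members. Over all genes tested, 3.76% were called higher in MDSCs and 26.3% lower in TAMs. Of 35 further kinetochore genes, 10 were called higher and 0 lower in MDSCs (median 0.84), and 28 lower and 1 higher in TAMs (median -0.60). On the log2 scale Ska3 and Cenph rose by 1.39 and 1.32 in MDSCs, and Ska1 and Cenpi fell by 1.17 and 1.02 in TAMs. Of 37 further spindle, centrosome and cytokinesis genes tested, 17 were higher and 0 lower in MDSCs (median 0.92), and 29 were lower and 2 higher in TAMs (median -0.66). Pimreg and Iqgap3 each rose by 1.40 in MDSCs, and Stil and Aspm, both needed for centrosomes and spindle poles, fell by 1.01 and 0.92 in TAMs. Of 23 genes of the mitotic entry switch, 11 were higher and 0 lower in MDSCs (median 0.73), and 20 were lower and 2 higher in TAMs (median -0.56). Mybl2, a factor that switches on G2 and M phase genes together with the MuvB complex, rose by 1.21 in MDSCs and fell by 1.06 in TAMs, and the mitotic kinase gene Pbk rose by 1.19 and fell by 0.92. Without MDSC Shp2f/fLysMcre replicate 2, the MDSC medians were 0.83 for the kinetochore genes, 1.07 for the spindle genes and 0.86 for the entry genes.

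Genes of the anaphase-promoting complex (its core subunits, Fzr1, Ube2s and Fbxo5) and of cohesin had medians near that of all genes in the fit of all MDSC libraries. Of these, 1 of 17 and 1 of 13 were called higher and 0 lower in either list, with medians of 0.02 and 0.01, where 4.28% of all genes tested were called. The called genes were Fbxo5, an inhibitor of the complex that rose by 1.05, and Cdca5, which encodes the cohesin protector sororin and rose by 1.03. In TAMs 8 of the 17 were lower and 1 higher (median -0.14), and 7 of the 13 were lower and 2 higher (median -0.26), where 50.2% of all genes tested were called. Anapc5 fell by 0.33 and Fbxo5 by 0.40 there, and Cdca5 and the cohesin acetyltransferase gene Esco2 fell by 0.85 and 0.84. Of the 3 genes particular to condensin II, 0 were called in MDSCs. Their log2 fold changes there were between 0.37 and 0.99, and all 3 had an unadjusted p under 0.05. In TAMs Ncapd3 fell by 0.37 while Ncapg2 rose by 0.33. The MDSC medians without Shp2f/fLysMcre replicate 2, which left 1 deleted library, were 0.03 for the anaphase-promoting complex genes, 0.28 for cohesin and 1.02 for condensin II. Among 18 inhibitors and quiescence regulators, Cdkn2c, which encodes the CDK4 and CDK6 inhibitor p18, went with the mitotic genes (higher by 0.86 in MDSCs, lower by 0.71 in TAMs) and was the only one of 16 tested that was called in MDSCs. In TAMs 9 of the 18 were higher and 4 lower (median 0.25), with Btg2, an antiproliferative gene, highest at 0.92.

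**Figure D4:**
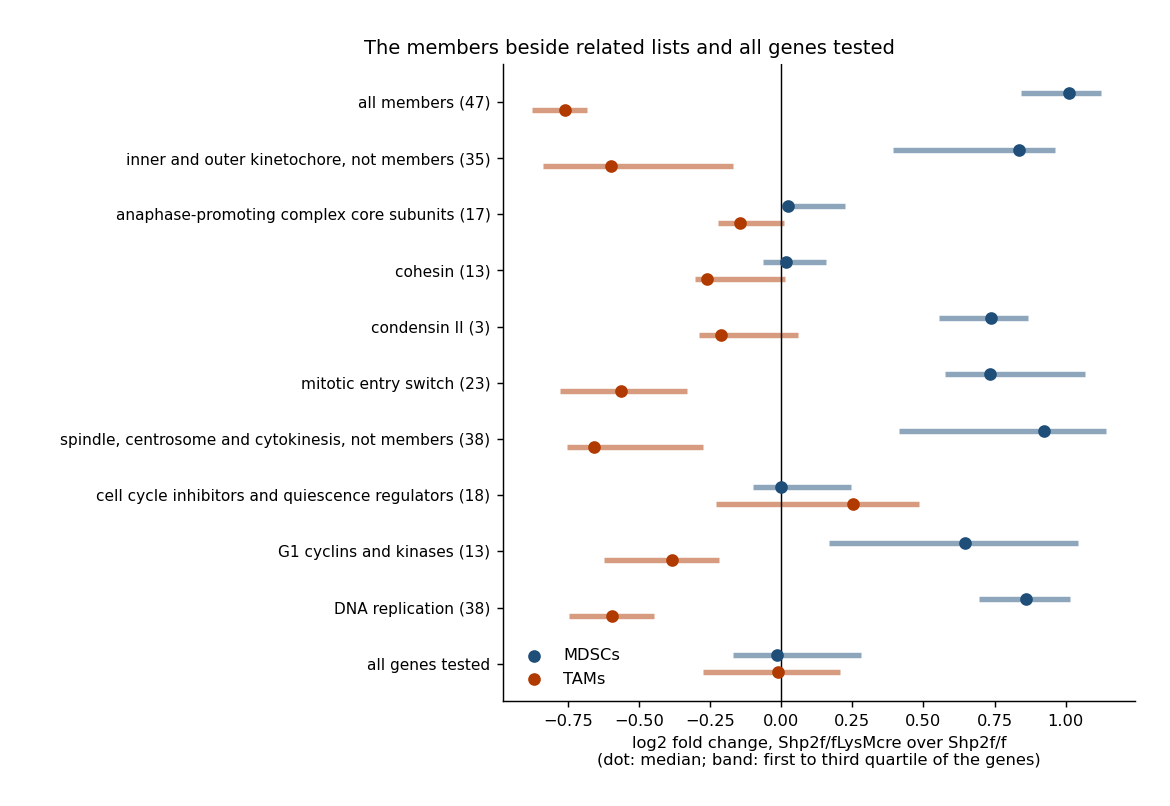
Median log2 fold change (dots) and range from the first to the third quartile (bands) of the members, of related lists and of all genes tested, with the number of genes in each list in brackets, for MDSCs (blue) and TAMs (orange). The members lie at 1.01 and -0.76, the anaphase-promoting complex core at 0.02 and -0.14, and all genes tested at -0.01 in both cell types.

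Genes of DNA replication moved in the same directions as the mitotic genes, where 3.76% of all genes tested were called higher in MDSCs and 26.3% lower in TAMs. Of 38, 30 were higher and 0 lower in MDSCs (median 0.86), and 37 were lower and 0 higher in TAMs (median -0.60). Rrm2 and Tk1, enzymes of nucleotide supply, rose by 1.35 and 1.31 in MDSCs, and Orc1 and Mcm6, of the origin and of the helicase, fell by 0.93 and 0.88 in TAMs. The summed level of the 47 mitotic genes divided by that of the 38 replication genes was 1.13 and 1.06 in Shp2f/f MDSCs and 1.24 and 1.07 in Shp2f/fLysMcre MDSCs, which overlapped. In TAMs the ratio was 1.07, 1.07 and 1.07 in Shp2f/f and 0.927, 0.923 and 0.961 in Shp2f/fLysMcre. It was lower in every deleted TAM library than in every control, a difference given here without a test. Of 13 G1 cyclins, kinases and E2F genes, 4 were higher and 0 lower in MDSCs (median 0.65), with E2f7 and Ccne1 rising by 1.33 and 1.02. In TAMs 12 were lower and 0 higher (median -0.38), with Ccne2 and Ccne1 falling by 0.95 and 0.71. The MDSC medians without Shp2f/fLysMcre replicate 2 were 0.88 for the replication genes and 0.44 for the G1 genes.

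Azurophil granule, erythroid and neutrophil markers had genes called higher in MDSCs, as the mitotic genes did, and no other marker list had any. Of 5 B cell markers, 2 were called lower and 0 higher (median log2 fold change -2.24). The macrophage, monocyte and megakaryocyte lists had 0 genes called, with medians of -0.08, -0.39 and -0.24. In the plasma cell, T and NK cell and dendritic cell lists 0 were called, with medians of 0.93, 0.74 and 0.10. All 5 plasma cell genes had an unadjusted p under 0.05 in edgeR, and 4 of them had a positive log2 fold change. Plasma cell markers summed to 266.0 and 195.8 CPM in Shp2f/f and to 369.6 and 327.0 CPM in Shp2f/fLysMcre. The 5 azurophil granule genes of neutrophil progenitors (Mpo, Elane, Prtn3, Ctsg and Ms4a3) were all called higher, with a summed level of 503.1 and 452.3 CPM in Shp2f/f and 1296 and 1133 CPM in Shp2f/fLysMcre. Of 15 erythroid genes, 12 were higher and 1 lower, with sums of 625.2 and 647.8 CPM against 1298 and 1515 CPM. Neutrophil markers summed to 8801 and 8647 CPM in Shp2f/f and to 23051 and 20501 CPM in Shp2f/fLysMcre, with 3 of 8 called higher (S100a8, S100a9 and Ly6g). None of the azurophil, erythroid or neutrophil markers was at 0 in either MDSC group. The part of these cells in the mitotic result was not tested. Fibroblast or tumor cell markers, high in Shp2f/fLysMcre replicate 2, were at 17.3 CPM in Shp2f/fLysMcre replicate 1, and their part in the mitotic result was also not tested. Leaving out Shp2f/fLysMcre replicate 2 was an alternative chosen after the data were seen for these lists. The median log2 fold change was then 1.62 for azurophil, 1.16 for erythroid and 1.22 for neutrophil markers. That of the fibroblast or tumor cell markers went from 4.44 to -0.74.

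The sort of the TAMs kept live CD45+ cells and took out Ly6G+ cells. In TAMs all 8 macrophage markers were higher in Shp2f/fLysMcre, with sums of 9110 to 9368 CPM in Shp2f/f and 12485 to 12897 CPM in Shp2f/fLysMcre. All 6 T and NK cell markers were lower, at sums of 5.65 to 6.87 CPM against 2.28 to 2.70 CPM. Fibroblast or tumor cell markers summed to 284.1 to 290.5 CPM in Shp2f/f and to at most 256.5 CPM in Shp2f/fLysMcre, with 1 of 8 called higher and 2 lower. Erythroid markers summed to 441.1 to 479.2 CPM in Shp2f/f and to 192.0 to 205.7 CPM in Shp2f/fLysMcre, although 4 of the 9 tested were called higher and 2 lower, and 4 of the 15 were at 0 in all Shp2f/f TAM libraries. Of 7 neutrophil markers tested in TAMs, 5 were called higher and 1, Mmp9, lower, while the list summed to 4354 to 4579 CPM in Shp2f/f and to 2286 to 2341 CPM in Shp2f/fLysMcre. Plasma cell markers summed to 507.4 to 522.8 CPM in Shp2f/f and to 287.0 to 301.5 CPM in Shp2f/fLysMcre, and both tested genes of the 5, Sdc1 and Prdm1, were lower. Megakaryocyte markers summed to 775.3 to 809.3 CPM in Shp2f/f and to 1091 to 1193 CPM in Shp2f/fLysMcre, with Pf4 called higher of the 2 tested of the 5. The paper reports Pf4 as raised and Prdm1 as lowered in TAMs, from its RNA-seq of these same cells. Whether these 2 sums came from TAMs or from plasma cells and megakaryocytes was not tested. Azurophil granule genes stayed between 0.770 and 2.07 CPM in sum in the TAM libraries. The part of cell composition in the fall of the mitotic genes was not tested.

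**Figure D5:**
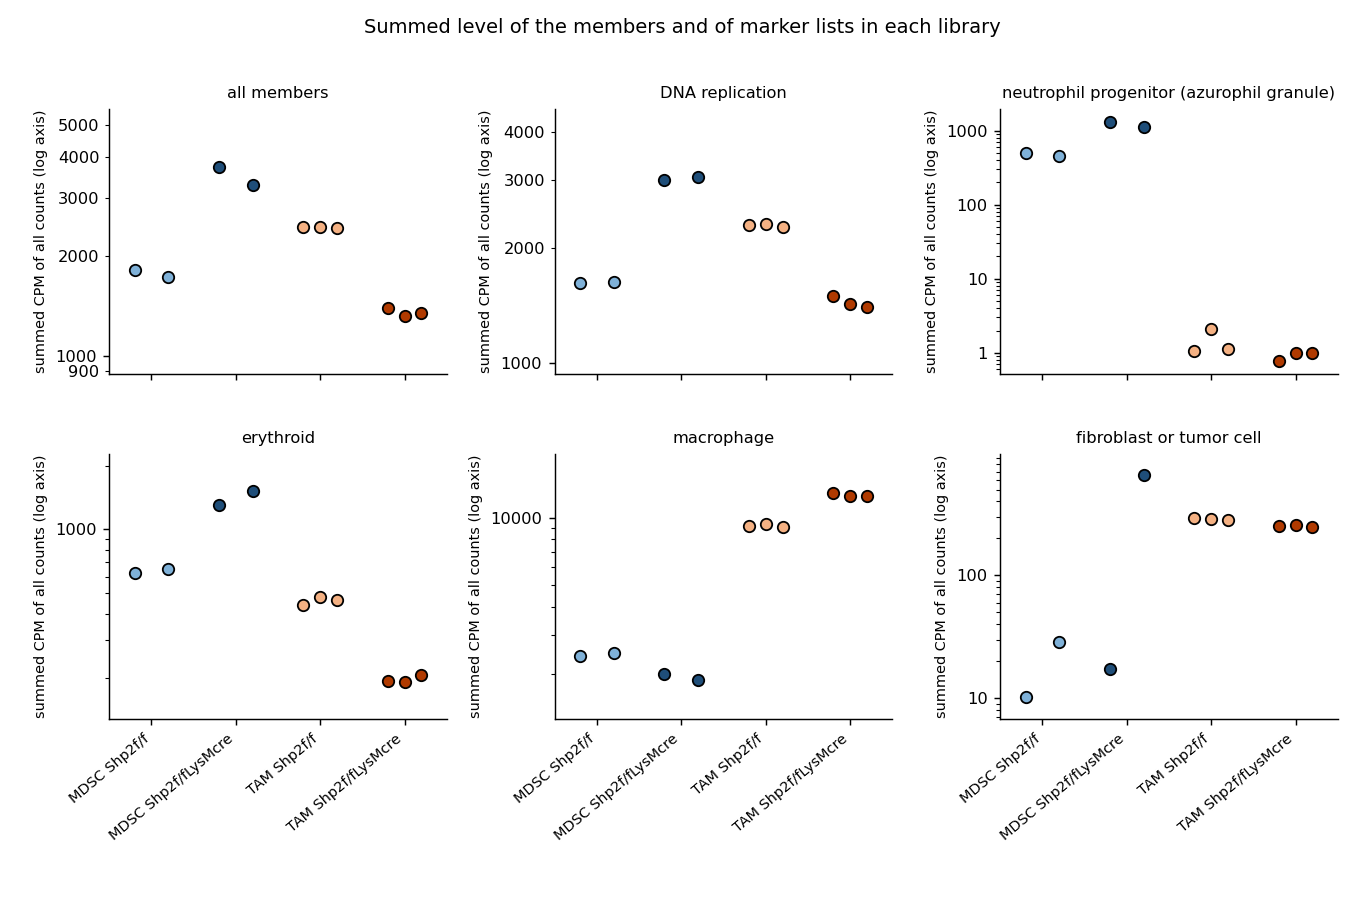
Summed level of the 47 members, of 38 DNA replication genes and of 4 marker lists in each library, in CPM of all counts on log axes, with a point for each library. The member and replication sums separate the genotypes in both cell types, azurophil granule genes are high in the MDSC libraries alone, and the fibroblast or tumor cell list shows the MDSC Shp2f/fLysMcre library that stood apart (650.3 CPM).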

How the data were processed

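Poly(A) RNA of 10 libraries (2 per genotype from MDSCs, 3 per genotype from TAMs) was sequenced as 42-nt read pairs after stranded preparation. The authors deposited gene counts, unnormalized whole numbers made on GRCm38 with cutadapt (2.5), STAR (2.7.3a) and featureCounts (Subread 1.6.2), per the submitters' processing notes. A normalized table of the authors was not used. Symbols matched 55154 of 55421 gene identifiers. Genotypes were compared within each cell type in edgeR (4.0.16, R 4.3.3; filterByExpr with a minimum count of 10, TMM scaling, quasi-likelihood test, Benjamini-Hochberg adjusted p under 0.05), and a joint fit of all libraries gave the interaction and the cell type differences. Alternatives were DESeq2 (1.42.0), limma voom (3.58.1), other scalings and filters, a replicate block and leaving out each library. Fits were tested on simulated data. Values in every library are given for the 2 members of each role group with the highest mean CPM per kilobase of exon, for the 3 with the largest and the 3 with the smallest log2 fold change in each cell type, and for any called against the direction of most. Other members are given by fold change only. Of other lists, the 2 called genes with the largest change per cell type may be named. Promoters to print, marker genes and members not called were named outside this rule. The members and lists were chosen with earlier results of these data known. Depth of 28844660 to 38222998 counts limits low genes. Marker sums use CPM of all counts.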

Additional observations from a re-analysis of the deposited data

Results flagged for a closer look

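The genotype effect differed between TAMs and MDSCs for 46 members, all called lower in the joint edgeR fit, with a median of -1.75 on the log2 scale. No group had 4 or more libraries, so no outlier rule was applied to single libraries. MDSC Shp2f/fLysMcre replicate 2 stood apart in its fibroblast or tumor cell markers, as described above. The differences (TAM effect minus MDSC effect, log2) of the genes described one by one were widest for Kif15 (-2.11), Nusap1 (-2.10), Spc25 (-2.03), Mki67 (-2.00), Top2a (-1.99), Kif18b (-1.97), Cdc20 (-1.96), Ccna2 (-1.95), Prc1 (-1.94) and Ube2c (-1.93). Next came Bub1 (-1.82), Kif20a (-1.78), Tpx2 (-1.77), Birc5 (-1.75), Aurka (-1.58), Spc24 (-1.48), Bub1b (-1.45), Kif2c (-1.42) and Ccnb2 (-1.30). They were smallest for Incenp (-1.11), Espl1 (-0.87) and Cenpa (-0.76).

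Over all 16581 genes tested, the difference was called for 24.9% (12.7% lower and 12.2% higher). In the related lists it was called lower for 29 of 35 kinetochore genes, 38 of 38 DNA replication genes and 12 of 13 G1 genes. The same call was made for 6 of 17 anaphase-promoting complex genes, 5 of 13 cohesin genes and 2 of 3 condensin II genes. It was called lower for 18 and higher for 1 of 23 genes of the mitotic entry switch, and lower for 28 and higher for 2 of 37 other spindle, centrosome and cytokinesis genes. Among 18 inhibitors and quiescence regulators it was lower for 3 and higher for 5.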

How the results depend on the processing

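The members called lower in TAMs and in the interaction numbered 46 under every alternative run, and the members called lower in MDSCs 0. The 34 members called higher in MDSCs became 8 without a filter on low counts, 0 at an adjusted p under 0.01 and 0 to 45 with 1 library left out, the cause not being tested. The replicate block gave 45, but same-numbered libraries did not deviate together in TAMs (r between -0.145 and 0.088; 0.277 in MDSCs), so the numbers were not taken as pairs. The MDSC median ranged from 0.80 to 1.18 with 1 library left out. The 1 member higher in TAMs became 0 with total counts, the replicate block, an adjusted p under 0.01 and 1 fit of all libraries, and 0 to 1 with 1 library left out.

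Total counts, which moved the median of all genes from -0.01 to -0.11 in TAMs, from -0.01 to -0.18 in the interaction and from -0.07 to -0.26 between deleted TAMs and MDSCs, moved the member medians to -0.86, -1.92 and -1.39. They moved the higher calls over all genes from 2030 of 4132 to 1234 of 4366 in the interaction and from 5354 of 11429 to 4297 of 11737 between the deleted cells. With 1 library left out the last 2 medians ranged from -1.87 to -1.58 and from -1.30 to -0.9962. The 3 members lower in control TAMs than MDSCs became 1 with DESeq2, without a filter and at an adjusted p under 0.01, and 1 to 3 with 1 library left out. All genes called numbered 633 in MDSCs against 130 (no filter), 1256 (DESeq2), 2674 (block), 2666 (1 fit), 3 (adjusted p under 0.01) and 1 to 4406 (1 library left out), 7257 in TAMs against 4837 (1 fit), and 4132 in the interaction against 2220 (adjusted p under 0.01), 2803 (limma voom) and 2446 to 7023 (1 library left out).

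Directions turned for small effects that were not called. With 1 library left out, the MDSC effect was -0.021 to 0.26 for Espl1 and -0.038 to 0.38 for Pttg1, the interaction of Pttg1 -0.19 to 0.28, the control TAM minus MDSC difference -0.074 to 0.032 for Birc5 and -0.25 to 0.072 for Pttg1, and the deleted one -0.11 to 0.13 for Espl1, -0.049 to 0.095 for Kif2c and -0.28 to 0.18 for Pttg1. The interaction of Pttg1 was -0.16 with total counts and -0.0075 with a minimum count of 50. With the replicate block the control difference was 0.14 for Birc5 and 0.20 for Pttg1, and the deleted one -0.024 for Espl1 and 0.22 for Pttg1. Total counts gave -0.19 for Espl1 and -0.17 for Kif2c there, and a minimum count of 50 gave -0.0265 and -0.0098. Of the values of single described members under the alternatives, 1714 kept direction and side of the threshold, 88 lost the call, 15 gained it and 23 turned.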
